A study of Mus musculus with 12 samples.

Results

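Solute carriers of amino acids, sugars, peptides and monocarboxylates were described here as all genes whose single array symbol falls in the families Slc1, Slc2, Slc3, Slc5, Slc6, Slc7, Slc15, Slc16, Slc36, Slc38 and Slc43. The rule found 105 of the 30063 genes named on the array, and 103 of them are carriers by name. The other 2 are Slc2a4rg-ps, a pseudogene, and Slc7a6os, a gene on the opposite strand at Slc7a6. Seminal vesicles were taken at week 10 from male mice of strain C57BL/6, and their RNA was measured on 12 Affymetrix arrays, with 3 for each of 4 groups. The aERKO_DES and WT_DES mice had been given the synthetic estrogen diethylstilbestrol (DES) as pups, injected subcutaneously in corn oil on each of days 1 to 5 (day 1 is birth) at a daily dose of 2 µg. The aERKO_vehicle and WT_vehicle mice received corn oil alone. The aERKO mice lack estrogen receptor alpha, the product of Esr1, and the labels do not describe the allele. Esr1 was lower in every aERKO array (log2 values of 6.81 to 7.09) than in every WT array (7.55 to 7.80).

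Solute carriers are membrane proteins that move small molecules, often by coupling them to sodium, to protons or to the exchange of another solute. Light chains of the Slc7 family, such as Slc7a5 and Slc7a11, reach the membrane bound to the heavy chain Slc3a2, and monocarboxylate carriers of the Slc16 family need basigin (Bsg) or embigin (Emb). The seminal vesicle is a secretory gland whose epithelium makes large amounts of protein and a fluid rich in fructose, so it draws on both amino acids and glucose. Slc5 and Slc6 also hold carriers of other solutes, such as iodide, vitamins, creatine and taurine.

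Of the 105 genes, 81 had values above the array's median on at least 3 of the 12 arrays and were tested with limma. The 24 that were not tested had mean log2 values of 3.73 to 5.99, and 4 of them averaged below the mean of the background-control probe sets. They are Slc1a2, Slc2a2, Slc2a5, Slc3a1, Slc5a4a, Slc5a4b, Slc5a7, Slc5a12, Slc6a5, Slc6a15, Slc6a16, Slc6a19, Slc7a3, Slc7a9, Slc7a12, Slc7a13, Slc7a14, Slc7a15, Slc15a1, Slc15a5, Slc16a4, Slc16a14, Slc38a4 and Slc38a11. Among them Slc2a5, the fructose carrier, averaged 5.52 in WT_DES and 5.88 in WT_vehicle. Slc5a8, Slc7a11 and Slc16a12 passed the filter only through the WT_DES arrays, so a difference between the groups was a condition of their being tested. A value here is the signal of a gene's probe set on the log2 scale, and signals of different probe sets do not order transcripts by abundance.

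Neonatal DES was followed by opposite movements within the carriers of WT glands. Slc5a8, Slc7a11, Slc43a3 and Slc16a12, carriers of monocarboxylates, cystine, nucleobases and creatine, were 2.09-fold to 3.85-fold higher in WT_DES than in WT_vehicle. The amino acid carriers Slc7a5, Slc7a8 and Slc7a1, the monocarboxylate carrier Slc16a7, the creatine carrier Slc6a8 and the glutamate carrier Slc1a1 were lower, by log2 differences of -1.13 to -0.75. limma called 46 of the 81 tested members at an adjusted p below 0.05, or 56.8%, where 43.9% of all 20102 tested genes were called. Of the members, 19 were higher (20.7% of all genes) and 27 were lower (23.3% of all genes). The median log2 difference was -0.18 over the members and -0.05 over all tested genes. With a fold of at least 2 added, 6 members were called (5.12% of all genes were). Of these 4 rose and 2 fell, where 4.59% and 0.532% of all genes did so. Among the 4, Slc5a8, Slc7a11 and Slc16a12 were tested only through the WT_DES arrays. The 3 WT_DES arrays did not overlap the 3 WT_vehicle arrays for 64 of the 81 members, against 60.9% of all genes, and all 46 called members were among the 64. Nothing in the labels ties the 3 arrays of a group to different mice. The p-values therefore reflect array-to-array spread, part of which may be technical. In whole tissue, fewer cells of a type and less RNA per cell cannot be told apart.

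The increase with the largest fold was that of Slc5a8, a sodium-coupled carrier of lactate, pyruvate and short-chain fatty acids. Its log2 values were 7.45, 7.65 and 7.76 in WT_DES, against 5.68, 5.66 and 5.69 in WT_vehicle. The aERKO_DES arrays read 5.64, 5.68 and 5.81, and the aERKO_vehicle arrays 5.75, 5.64 and 5.81. The 3 WT_DES arrays stood apart from the other 9, which lay close together. The difference in WT was 1.95 ± 0.08 (SE, limma adjusted p = 2.39e-09), or 3.85-fold. Slc5a8 was tested only because its WT_DES arrays passed the filter, so this p-value is not independent of that choice.

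Slc7a11 encodes the light chain that exchanges cystine for glutamate and so feeds glutathione synthesis. It read 6.94, 7.45 and 7.32 in WT_DES, against 5.74, 5.60 and 5.73 in WT_vehicle. In aERKO_DES it read 5.47, 5.73 and 6.01, against 5.59, 5.70 and 5.60 in aERKO_vehicle. Again only the WT_DES arrays were high, with no overlap. The difference in WT was 1.55 ± 0.14 (SE, adjusted p = 2.53e-06), or 2.92-fold. Slc7a11 likewise passed the filter only through the WT_DES arrays, and its p-value has the same limit. Slc3a2, the heavy chain of Slc7a11, was slightly lower under the authors' normalization but not under every scaling, as given below with the other light chains.

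Slc43a3, a carrier of purine nucleobases, read 9.90, 10.32 and 9.70 in WT_DES, against 8.61, 8.36 and 8.50 in WT_vehicle. The difference was 1.48 ± 0.14 (SE, adjusted p = 5.05e-06), or 2.79-fold. The aERKO_DES arrays read 8.75, 8.50 and 8.36, against 8.73, 8.60 and 8.57 in aERKO_vehicle, and these groups overlapped. Slc16a12, a creatine carrier of the monocarboxylate family, averaged 6.85 ± 0.163 in WT_DES and 5.78 ± 0.137 in WT_vehicle (SD, n = 3 each). The groups did not overlap, and the lowest WT_DES array, at 6.68, stood above the highest WT_vehicle array, at 5.94. The difference was 1.06 ± 0.10 (SE, adjusted p = 4.36e-06), or 2.09-fold. The WT_vehicle means of Slc5a8, Slc7a11 and Slc16a12 exceeded the background-control mean by 0.37, 0.38 and 0.48. The folds of these 3 genes thus rest on baselines close to background, and all 3 were tested only through the WT_DES arrays.

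**Figure D1:**
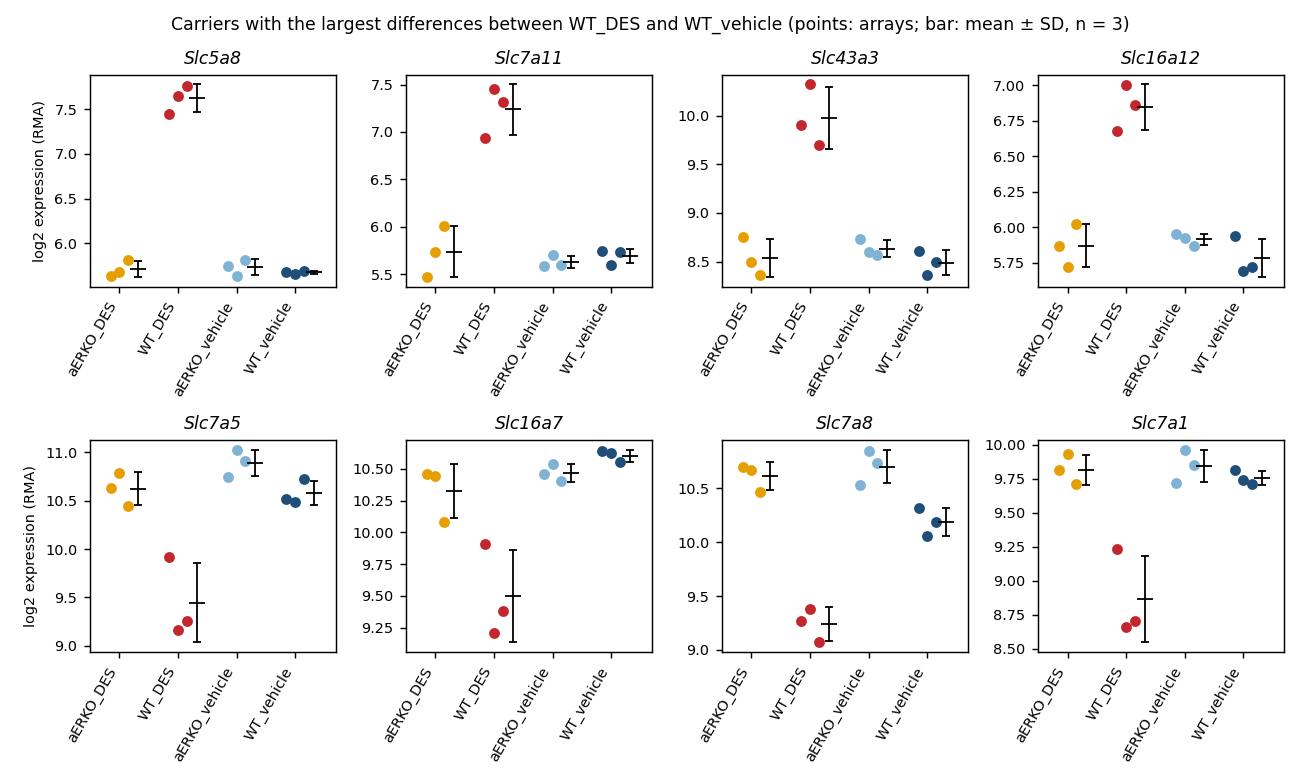
Log2 expression of 8 carriers on each of the 12 arrays (points), with the mean ± SD of each group beside them (bars, n = 3); the y axis differs between panels and does not start at 0. In the upper row (Slc5a8, Slc7a11, Slc43a3, Slc16a12) the WT_DES points lie above all other points, and in the lower row (Slc7a5, Slc16a7, Slc7a8, Slc7a1) they lie below them.

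The remaining increases were under 2-fold. Slc7a2, a carrier of arginine and other cationic amino acids, was at 7.27, 7.49 and 7.18 in WT_DES, against 6.49, 6.47 and 6.59 in WT_vehicle (difference 0.80, adjusted p = 5.58e-06). The lysosomal peptide and histidine carriers rose together. Slc15a3 read 7.58, 8.03 and 7.75 in WT_DES, against 6.95, 7.02 and 7.03 in WT_vehicle (0.79, adjusted p = 5.74e-05), and Slc15a4 was higher by 0.47. Slc43a2, a carrier of large neutral amino acids that works by facilitated diffusion, was higher by 0.66 (adjusted p = 0.000146). Slc16a1, the monocarboxylate carrier MCT1, was higher by 0.66 (adjusted p = 0.000126), and Slc16a9 by 0.48. Slc2a3, the glucose carrier GLUT3, was higher by 0.60 (adjusted p = 0.000603), and Slc5a9, a sodium-coupled sugar carrier, by 0.58. Smaller increases were those of Slc7a6 (0.37) and Slc7a7 (0.25), the light chains that exchange cationic for neutral amino acids, Slc6a6, the taurine carrier (0.36), Slc2a6 (0.36), Slc36a4 (0.34), Slc38a2 (0.33) and Slc36a1 (0.31). The calls of Slc7a7, Slc6a6, Slc2a6, Slc36a4, Slc38a2 and Slc36a1 were lost without WT_DES 2, with adjusted p-values of 0.0567 to 0.108 at that setting.

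Macrophage marker genes moved with these increases. All 10 tested macrophage markers rose, with a median of 2.20, and their mean level ranged from 9.42 to 9.90 over the WT_DES arrays, against 7.21 to 7.44 over the WT_vehicle arrays. Neutrophil markers rose in 7 of 10 (8.14 to 8.60, against 5.86 to 5.89), basal and squamous epithelial markers in 7 of 7 (9.55 to 9.91, against 7.76 to 7.92) and fibroblast markers in 7 of 7 (10.2 to 10.7, against 8.45 to 8.80). B and plasma cell markers rose in 6 of 7, T cell markers in 5 of 6 and endothelial markers in 7 of 7, where 20.7% of all genes rose. The part of these cells in the higher carrier signals was not tested.

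Small decreases coincided with a lower background. The background-control probe sets averaged 4.87 in WT_DES and 5.31 in WT_vehicle, a difference of -0.43, and 15 of the 27 lower members fell by less than that. The hybridization controls, added in equal amounts by design of the assay, averaged 11.4 in WT_DES and 11.7 in WT_vehicle. After a shift of each array to these controls, the median over all genes was 0.31, and 30 members were called higher and 7 lower. Of all 20102 tested genes, 8345 were called higher and 350 lower under that shift. All 19 higher members were again called higher. This shift raises every difference in WT by the same amount, so it could hardly remove an increase and does not test the 19. The 7 that were again called lower were Slc7a5, Slc16a7, Slc7a8, Slc7a1, Slc6a8, Slc7a4 and Slc1a1. Changes reported here are relative to the authors' normalization, and the call of every other lower member in WT was lost under this shift. Those 7 were the only decreases called under each scaling tried. Of the 46 calls, 20 (13 higher and 7 lower) held in every alternative setting that tested the gene, up to 22 of them. Leaving out each array in turn was among these settings. The 13 include Slc5a8, Slc7a11 and Slc16a12, which were tested only through the WT_DES arrays, so being high there was a condition of their test. Without WT_DES 2 the count of called members was 34 (32.2% of all genes), and without WT_DES 3 it was 52 (45.6%).

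The largest decrease was that of Slc7a5. It encodes the light chain LAT1 that brings in leucine and other large neutral amino acids, and read 9.92, 9.16 and 9.26 in WT_DES, against 10.52, 10.49 and 10.72 in WT_vehicle. Its aERKO_DES values were 10.63, 10.79 and 10.45, and its aERKO_vehicle values were 10.75, 11.02 and 10.91. All WT_DES arrays lay below the other 9, and WT_DES 1 was the nearest to them. The difference in WT was -1.13 ± 0.17 (SE, adjusted p = 0.000182), or 2.19-fold lower. Slc7a8, the related light chain LAT2, read 9.27, 9.38 and 9.07 in WT_DES, against 10.32, 10.06 and 10.19 in WT_vehicle, a difference of -0.95 ± 0.11 (SE, adjusted p = 2.11e-05). Slc3a2, the heavy chain they share with Slc7a11, read 10.60, 10.41 and 10.32 in WT_DES, against 10.70, 10.63 and 10.80 in WT_vehicle. It differed by only -0.26 (adjusted p = 0.0186), and this call was lost without WT_DES 2, WT_DES 3 or WT_vehicle 3 (adjusted p = 0.0561, 0.0609 and 0.0800). After the shift to the hybridization controls Slc3a2 differed by 0.0925 and was not called, so its direction depends on the scaling.

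The cationic amino acid carriers split. Slc7a1, the carrier CAT1 of arginine and lysine, read 9.23, 8.66 and 8.70 in WT_DES, against 9.81, 9.74 and 9.71 in WT_vehicle (-0.89 ± 0.13 SE, adjusted p = 0.000158). Slc7a4, a family member without an established substrate, read 8.57, 8.24 and 8.28 in WT_DES, against 9.11, 9.19 and 9.25 in WT_vehicle (-0.82, adjusted p = 0.0001). Slc7a2 rose, as given above. Of the 10 tested Slc7 entries, which include Slc7a6os, 4 rose and 4 fell (20.7% and 23.3% of all genes), with a median difference of -0.02. After the shift to the hybridization controls 5 rose and 4 fell, where 8345 and 350 of the 20102 genes did.

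Slc16a7, the monocarboxylate carrier MCT2, read 9.91, 9.21 and 9.38 in WT_DES, against 10.64, 10.62 and 10.55 in WT_vehicle, and differed by -1.10 ± 0.15 (SE, adjusted p = 0.000106), or 2.15-fold lower. Slc6a8, the creatine carrier, read 10.63, 10.23 and 10.10 in WT_DES, against 11.12, 11.34 and 11.15 in WT_vehicle (-0.88 ± 0.14 SE, adjusted p = 0.000299). Creatine carriers therefore moved in both directions, since Slc16a12 rose. Slc1a1, a glutamate, aspartate and cysteine carrier, read 7.50, 7.07 and 7.12 in WT_DES, against 7.85, 8.17 and 7.92 in WT_vehicle (-0.75 ± 0.15 SE, adjusted p = 0.00192). Its relative Slc1a4, a carrier of alanine, serine and cysteine, fell by 0.35, whereas Slc1a5, which carries glutamine, was not called (-0.20, adjusted p = 0.124).

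Of the 11 tested Slc2 entries 5 fell and 2 rose, where 23.3% and 20.7% of all genes did. Besides glucose carriers they include the urate carrier Slc2a9, the myo-inositol carrier Slc2a13 and the pseudogene Slc2a4rg-ps, none of them called. After the shift to the hybridization controls 0 of the 11 were called lower and 4 higher, where 350 and 8345 of the 20102 genes were. Slc2a1, the glucose carrier GLUT1 found in most tissues, read 10.10, 10.11 and 9.79 in WT_DES, against 10.27, 10.47 and 10.43 in WT_vehicle. It was lower by -0.39 ± 0.11 (SE, adjusted p = 0.0165), a call lost without WT_vehicle 2, WT_vehicle 3 or WT_DES 3 (adjusted p = 0.0612, 0.0538 and 0.0571). Slc2a12 (-0.55), Slc2a10 (-0.54), Slc2a8 (-0.38) and the insulin-responsive Slc2a4 (-0.23) were also lower. Slc5a1, the sodium-coupled glucose carrier SGLT1, fell by 0.51 (adjusted p = 0.000545). After the shift to the hybridization controls neither Slc2a1 (-0.03, adjusted p = 0.884) nor Slc5a1 (-0.15, adjusted p = 0.414) was called. Slc2a3 was called higher (0.96, adjusted p = 2.03e-05), but that shift enlarges every increase and so does not test this call.

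The counts of the other families are to be read against 20.7% of all genes higher and 23.3% lower. After the shift to the hybridization controls, 8345 of the 20102 genes were higher and 350 lower. Of 15 tested Slc6 genes 5 fell and 1 rose, with a median of -0.20, and after the shift to the hybridization controls 1 fell and 3 rose. The proline and glycine carriers in it were Slc6a20a (-0.52, adjusted p = 0.000217), Slc6a20b (-0.29) and Slc6a9 (-0.25), and the call of Slc6a9 was lost without WT_vehicle 3 (adjusted p = 0.0729). Slc6a14, a carrier of neutral and cationic amino acids, was not called (0.50, adjusted p = 0.126), and its WT_vehicle arrays were spread widely, at 7.79, 8.91 and 8.68. Of 9 tested Slc38 genes, which carry glutamine and other small neutral amino acids, 3 fell, among them Slc38a10 (-0.44) and Slc38a7 (-0.39), and 1 rose. Of the 3 tested Slc15 genes 2 rose, of the 4 Slc36 genes 2 rose and of the 3 Slc43 genes 2 rose, with none lower in these 3 families. Of 11 tested Slc16 genes 3 rose and 1 fell, and the lactate exporter Slc16a3 was not called (-0.05, adjusted p = 0.661). Slc5 had 2 members higher and 4 lower of 8 tested. Under that shift 0 genes of Slc5 and 0 of Slc38 were called lower.

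**Figure D2:**
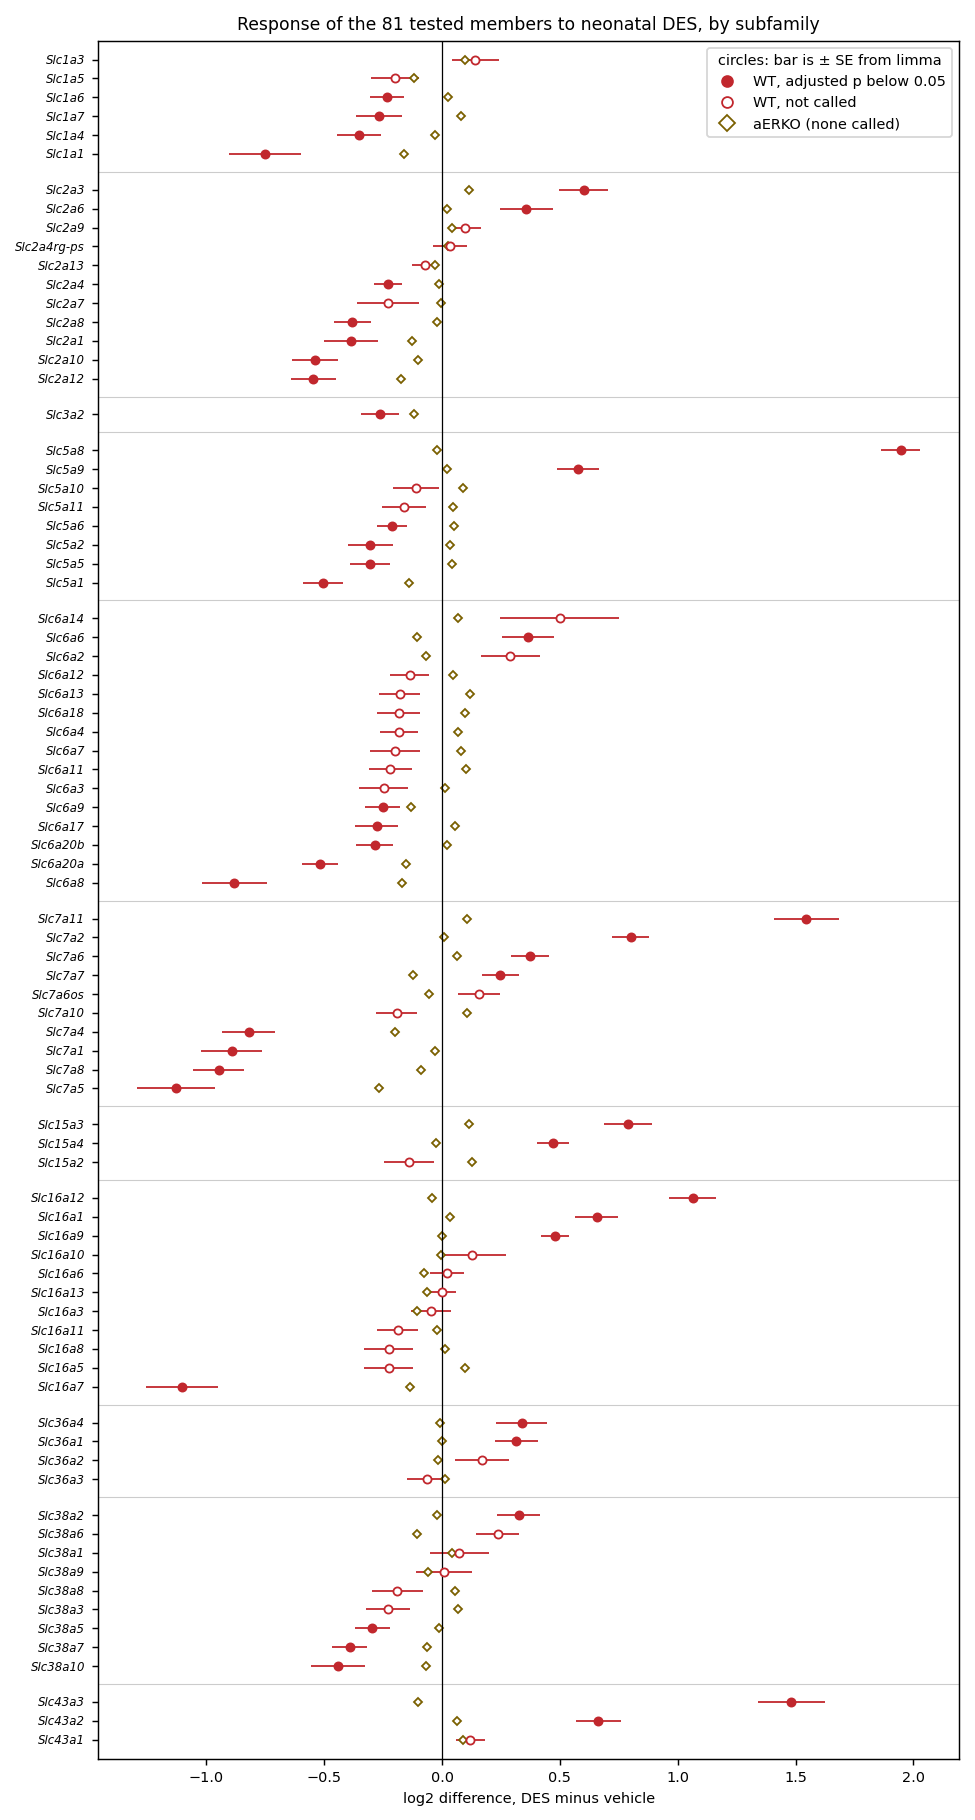
Log2 difference between DES and vehicle for the 81 tested members, by subfamily, in WT (circles with SE, filled where the adjusted p is below 0.05) and in aERKO (diamonds). In WT the values run from -1.13 to 1.95, while in aERKO they stay between -0.27 and 0.13.

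The calls were also counted by the signal of the probe set, which does not order the transcripts by abundance. Signal was taken as the mean of the 6 aERKO arrays, which do not enter the WT difference. Of the 12 members with a signal of at least 9, 8 fell and 2 rose, and 66.7% were therefore lower, where 24.8% of the 3397 tested genes in that range were. The 12 are Slc6a8, Slc3a2, Slc7a5, Slc7a8, Slc2a1, Slc16a7, Slc38a2, Slc6a6, Slc7a1, Slc16a6, Slc1a5 and Slc7a4. Between 8 and 9, 7 of 11 members fell (63.6%, against 26.2% of all genes there) and 1 rose. Between 7 and 8, 8 of 30 fell (26.7%, against 24.3%) and 11 rose (36.7%, against 19.1%). Below 7, 4 of 28 fell (14.3%, against 19.5%) and 5 rose, and 3 of those 5 are Slc5a8, Slc7a11 and Slc16a12, which were tested only through the WT_DES arrays. After the shift to the hybridization controls, 6 of the 8 fallers at a signal of at least 9 were again called lower, 1 of the 7 between 8 and 9 (Slc1a1), and 0 of the 12 below 8. Over all tested genes 4677 were lower before that shift and 350 under it. These were not counted by range of signal, so the 6 of 8 has no share of all genes beside it.

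**Figure D3:**
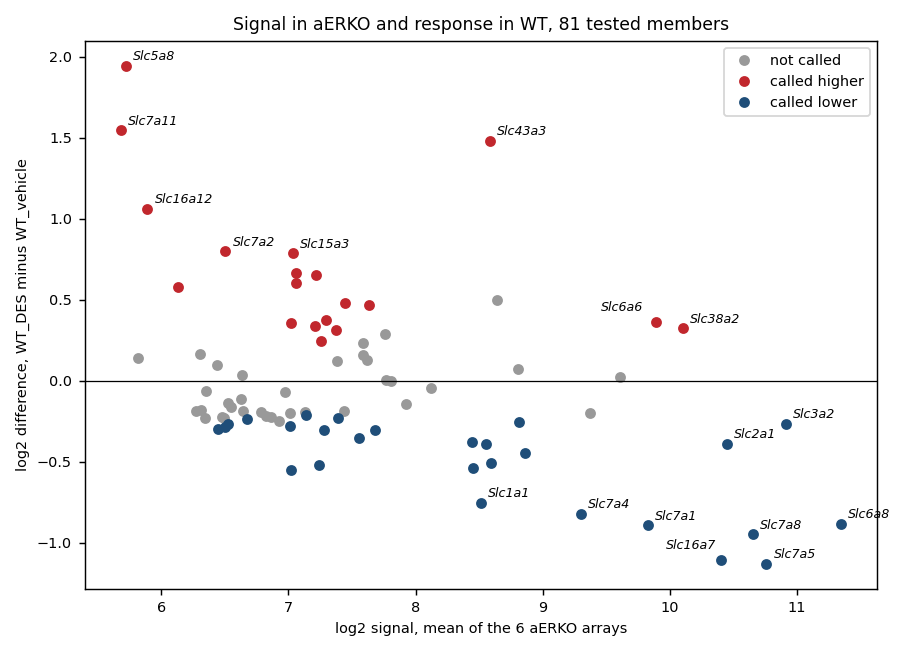
Log2 difference between WT_DES and WT_vehicle (y axis) against the log2 signal in the 6 aERKO arrays (x axis), 1 point for each of the 81 tested members, coloured by call. Of the 12 members at a signal of 9 or more, 8 were called lower; Slc6a6 and Slc38a2 were called higher.

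Upstream sequences of called carriers were read from RefSeq (assembly GRCm38.p6), as the 250 bases before the annotated start. The table held such windows for 77 of the 105 genes, 13 of them higher and 21 lower in WT_DES. Motifs were searched on both strands: the C/EBP-ATF element TGATGNAA bound by ATF4, the AP-1 site TGANTCA, the antioxidant response core TGACNNNGC bound by Nrf2 with small Maf proteins, which can overlap AP-1, and the palindromic estrogen response element. Slc5a8 and Slc7a11 are shown as the members with the largest increases, Slc7a8 and Slc7a1 as fallers among the Slc7 genes, with the matched motifs in capitals. The Slc5a8 window is chr10:88885742-88885991 (plus strand), that of Slc7a11 chr3:50443614-50443863, that of Slc7a8 chr14:54781887-54782136 and that of Slc7a1 chr5:148399905-148400154 (all 3 on the minus strand).
Slc5a8: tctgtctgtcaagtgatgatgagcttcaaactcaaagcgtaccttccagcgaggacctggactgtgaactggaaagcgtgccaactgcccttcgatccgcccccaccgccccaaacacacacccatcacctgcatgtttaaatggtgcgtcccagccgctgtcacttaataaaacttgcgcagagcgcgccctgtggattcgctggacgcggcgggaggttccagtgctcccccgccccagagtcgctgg
Slc7a11: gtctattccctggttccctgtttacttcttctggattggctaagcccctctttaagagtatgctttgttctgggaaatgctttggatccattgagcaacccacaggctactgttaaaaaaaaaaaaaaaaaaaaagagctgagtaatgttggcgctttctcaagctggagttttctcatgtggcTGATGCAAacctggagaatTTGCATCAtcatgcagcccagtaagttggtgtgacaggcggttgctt
Slc7a8: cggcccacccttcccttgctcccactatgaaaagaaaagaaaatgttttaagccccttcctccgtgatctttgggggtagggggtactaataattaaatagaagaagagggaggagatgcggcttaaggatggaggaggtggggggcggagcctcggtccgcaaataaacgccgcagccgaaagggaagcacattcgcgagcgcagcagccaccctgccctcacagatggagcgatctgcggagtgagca
Slc7a1: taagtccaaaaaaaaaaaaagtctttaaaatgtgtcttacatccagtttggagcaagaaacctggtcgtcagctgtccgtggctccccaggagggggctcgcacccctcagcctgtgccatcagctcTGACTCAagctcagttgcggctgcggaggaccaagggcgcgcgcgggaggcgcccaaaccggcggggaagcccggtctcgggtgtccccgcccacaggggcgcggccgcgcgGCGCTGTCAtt
The Slc7a11 window held the C/EBP-ATF element at 2 places, -66 to -59 and, on the other strand, -47 to -40 from the start. That of Slc7a1 held an AP-1 site at -123 to -117 and an antioxidant core at -11 to -3. Those of Slc5a8 and Slc7a8 held none of the 4 motifs. The C/EBP-ATF element was in 3 of 19 windows of higher members, from Slc7a11 and Slc7a7, and in 0 of 26 windows of lower members, where 3.45% of 32851 windows of all promoters held it. The AP-1 site was in 0 of 19 and 5 of 26 windows (6.75% of all), and the antioxidant core in 4 of 19 and 3 of 26 (10.2% of all). Those 5 windows came from Slc38a10, Slc38a7, Slc6a17 and Slc7a1, and those 3 from Slc6a9 and Slc7a1. Some genes have several windows, which are not independent of each other. The estrogen response element was in 0 of 19 and 0 of 26 (0.0639% of all). A match describes these letters only, and a window without one says nothing about binding elsewhere.

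Genes around the carriers were described from lists of partners, amino acid sensing, enzymes and sugar metabolism. The amino acid response list holds genes that the transcription factor ATF4 induces when amino acids are short. The counts of each list are to be read against 20.7% of all genes higher and 23.3% lower. Counts after the shift to the hybridization controls are to be read against 8345 of the 20102 genes higher and 350 lower. Of the 20 tested genes of that list, 13 fell and 1 rose, with a median difference of -0.47. Asns, asparagine synthetase, averaged 9.25 ± 0.54 in WT_DES and 10.4 ± 0.0114 in WT_vehicle (SD, n = 3 each), a difference of -1.19 (limma adjusted p = 0.000417). The mitochondrial serine enzyme gene Shmt2 fell by 1.02, the proline synthesis gene Aldh18a1 by 0.93, and the serine synthesis genes Phgdh and Psat1 by 0.81 and 0.80. Atf4 itself fell by 0.35 (adjusted p = 0.0143). The exception was Nupr1, a stress-induced nuclear protein gene, which rose by 2.22. With arrays shifted to the hybridization controls 6 of the 20 fell and 2 rose, and the list median was -0.11. That shift raises every difference in WT by the same amount, which is about as large as the fall of Atf4. A fall of Atf4 therefore depends on the scaling. Slc7a11, Slc7a5, Slc3a2 and Slc38a2 are examples of carriers known as ATF4 targets, not a full list, and 2 of them rose and 2 fell. The calls of Slc3a2 and Slc38a2 were lost in some alternative settings.

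Amino acid sensing genes, which signal to the kinase mTOR at the lysosome, mostly were not called. Of 26 tested, 6 fell and 1 rose (median -0.03), a share of lower genes near the 23.3% of all genes. The balance turned with the scaling, since after the shift to the hybridization controls 1 fell and 9 rose. The list median was then 0.33, against 0.31 over all genes. The Rag GTPase gene Rragd fell by 0.88 and the leucyl-tRNA synthetase gene Lars by 0.62, and the stress-induced leucine sensor family gene Sesn1 rose by 0.60. Among enzymes of glutamine, arginine and tryptophan, 4 of 16 rose and 6 fell (median -0.16), and under that shift 5 rose and 1 fell. Those that rose were the tryptophan-degrading Ido1 (2.27), the inducible nitric oxide synthase Nos2 (1.95), the polyamine acetyltransferase Sat1 (1.36) and the arginase Arg1 (0.58). The alanine aminotransferase Gpt2 fell by 1.43 and the aspartate aminotransferase Got1 by 0.59. Nos2 and Arg1, which use arginine, were therefore higher in the glands in which Slc7a2 was higher and Slc7a1 lower.

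In glycolysis and lactate metabolism 8 of 22 genes rose and 3 fell (median 0.10), with the hexokinase Hk2 (0.90), the phosphofructokinase Pfkp (0.79) and the pyruvate kinase Pkm (0.77) higher and the pyruvate dehydrogenase kinase Pdk2 lower (-0.81). Under the shift to the hybridization controls 15 of the 22 rose and 1 fell, where 8345 of the 20102 genes rose and 350 fell. Of 6 tested partners 3 rose. Embigin (Emb), the ancillary protein of Slc16a7, rose by 2.04 ± 0.20 (SE), while basigin (Bsg), that of Slc16a1 and Slc16a3, was not called (0.10, adjusted p = 0.245). Arrdc4 (0.75) and Txnip (0.61), whose products remove glucose carriers from the surface, also rose. Of 5 tested genes of polyol and fructose metabolism 3 fell, among them the ketohexokinase Khk (-0.29), and the aldo-keto reductase Akr1b8 rose by 1.58. Under the same shift 0 of these 5 were called lower, and their differences ran from 0.05 upwards. Epithelial markers did not move as one: 7 of 7 basal and squamous markers rose, while 4 of 8 luminal markers rose and 3 fell (median 0.22). Of the secretory genes 5 of 8 fell (median -0.25). Among smooth muscle markers, which are not epithelial, 6 of 8 fell (median -0.43). Over all genes 20.7% rose and 23.3% fell. Marker genes were not counted after the shift to the hybridization controls. That shift moved the median over all genes from -0.05 to 0.31. This is more than the fall of the secretory median and less than that of the smooth muscle median. The secretory genes, which mark the tissue, averaged 13.3 to 13.7 over the WT_DES arrays and 13.7 to 13.8 over the WT_vehicle arrays. Adipocyte markers, of which 1 of 6 rose, averaged 7.42 to 7.50 over the WT_DES arrays and 6.60 to 8.02 over the WT_vehicle arrays. The part of these cell types in the lower carrier signals was not tested.

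**Figure D4:**
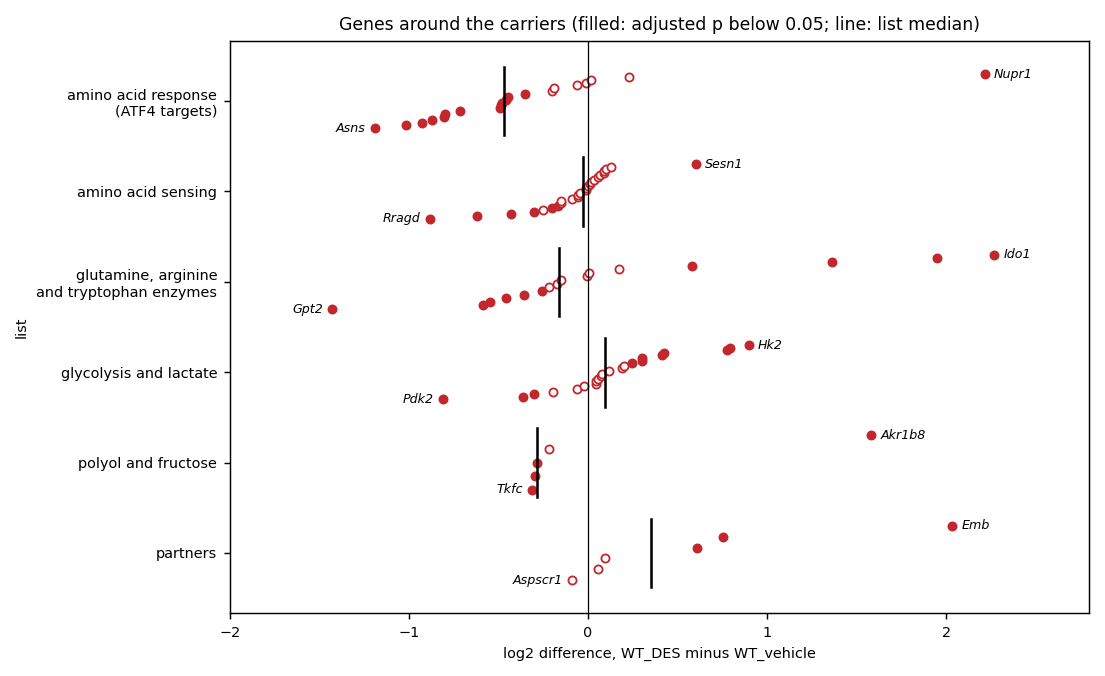
Log2 difference between WT_DES and WT_vehicle for the tested genes of 6 lists (points, filled where the adjusted p is below 0.05), with the list median as a black line and the genes at each end named. The amino acid response list has its median at -0.47, and Nupr1 lies apart from it at 2.22.

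In mice without the receptor the carriers showed no detected response. limma called 0 of the 81 members between aERKO_DES and aERKO_vehicle (0.0% of all genes), 0 members reached an unadjusted p below 0.05 (1.31% of all genes did), and the smallest adjusted p was 0.999. Differences ran from -0.27 (Slc7a5) to 0.13, with a median of 0.00. Slc5a8, for example, differed by -0.02 and Slc7a1 by -0.03. The groups did not overlap for 6 members, against 6.11% of all genes.

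The responses of the genotypes were compared directly as the aERKO difference minus the WT difference. This interaction was called for 26 members, 32.1%, where 23.3% of all genes were called, and all 26 were also called in WT. It was negative for 14 (14.1% of all genes) and positive for 12 (9.16%), while scaling to the hybridization controls left 17 calls, 13 of them negative and 4 positive. Under that scaling 14.6% of all genes were called, 2806 of them negative and 133 positive. Under the authors' normalization, the 4 of at least 2-fold were those of Slc5a8 (-1.97, adjusted p = 1.43e-07), Slc43a3 (-1.58), Slc7a11 (-1.44) and Slc16a12 (-1.11). That size was reached by 4.86% of all genes, 4.52% with a negative sign as here. Slc5a8, Slc7a11 and Slc16a12 passed the filter only through the WT_DES arrays, so being high there was a condition of their test. Among the fallers in WT the largest were Slc16a7 (0.97, adjusted p = 0.00683), Slc7a1 (0.86, adjusted p = 0.00509), Slc7a5 (0.86, adjusted p = 0.0203) and Slc7a8 (0.86, adjusted p = 0.00155). The call of Slc7a5 was lost without WT_DES 2, WT_vehicle 3 or aERKO_DES 2 (adjusted p = 0.0520, 0.0532 and 0.0518). For the other 20 members called in WT, among them Slc1a1 (0.59, adjusted p = 0.0664), Slc2a1 (0.26, adjusted p = 0.242) and Slc3a2 (0.15, adjusted p = 0.346), a difference between the genotypes' responses was not shown. The count was 16 without WT_vehicle 2, WT_vehicle 3 or WT_DES 2, 17 without aERKO_DES 2, and 33 at most, without WT_DES 3.

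**Figure D5:**
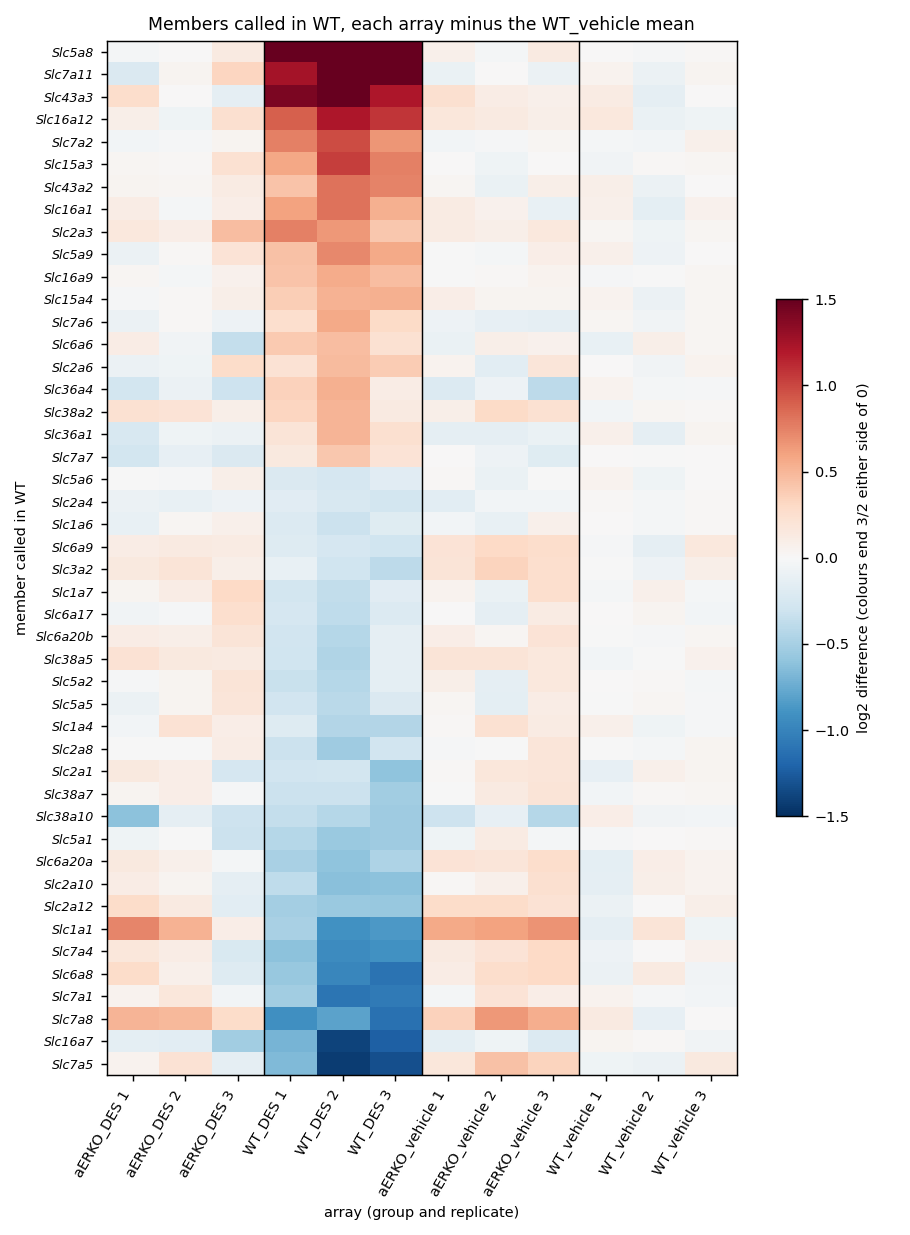
Each array's log2 value minus the WT_vehicle mean (colour) for the 46 members called in WT, ordered by their difference in WT; columns are the 12 arrays. The WT_DES columns hold the strong colours, and WT_DES 1 is paler than WT_DES 2 and WT_DES 3 among the lowest rows; the aERKO columns are positive for Slc1a1 and Slc7a8.

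Without DES, genotype differences were small. Of the 81 members 0 were called between aERKO_vehicle and WT_vehicle (0.0249% of all genes), and 14 reached an unadjusted p below 0.05 (4.3% of all genes). The groups did not overlap for 22 members, or 27.2%, against 12.2% of all genes. The glutamate carrier Slc1a1 read 8.55, 8.59 and 8.65 in aERKO_vehicle, against 7.85, 8.17 and 7.92 in WT_vehicle, a difference of 0.61 ± 0.15 (SE) whose adjusted p was 0.603. Slc7a8 read 10.53, 10.84 and 10.73 in aERKO_vehicle, against 10.32, 10.06 and 10.19 in WT_vehicle, a difference of 0.51 ± 0.11 (SE, adjusted p = 0.37). Both pairs of groups stood apart, yet neither difference passed the adjustment over all genes. With both treatments counted, Slc7a8, Slc38a5 and Slc6a20b had their 6 aERKO values above their 6 WT values, and Slc36a4 had them below. These are 3 of the 81 members above (3.7%, against 0.871% of all genes) and 1 below (1.23%, against 1.48%).

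After DES the genotypes differed widely. limma called 62 members between aERKO_DES and WT_DES, 76.5%, where 52.1% of all genes were called. Of these 38 were higher (27.5% of all genes) and 24 lower (24.6%). The balance depended on the scaling: after the shift to the hybridization controls 35 were called, 8 higher and 27 lower. Under that shift 31.7% of all genes were called, 553 of them higher and 5825 lower. This comparison shares the WT_DES arrays with the response in WT, so the 2 are not independent. Slc5a8 differed by -1.91, Slc7a11 by -1.50 and Slc43a3 by -1.44, whereas Slc7a8 differed by 1.37, Slc1a1 by 1.20 and Slc7a5 by 1.17. These 6 were the members past 2-fold, a size reached by 5.44% of all genes. Among them Slc5a8 and Slc7a11 were tested only through the WT_DES arrays. Slc7a8 read 10.70, 10.67 and 10.46 in aERKO_DES, against the WT_DES values given above, which were the lowest of the 12 arrays. Slc2a4, Slc38a2 and Slc38a10 were called in WT and not here.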

How the data were processed

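The authors deposited log2 expression per probe set, for which the submitters' processing notes name RMA and Affymetrix Expression Console. RMA corrects background, gives arrays a common distribution and combines the probes of a set, so a broad change can push other genes the other way. Version numbers, settings and build were not given in the sources used here. Per the labels' protocols, 300 ng of Trizol-extracted RNA were labelled with biotin.

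Probe sets with 1 symbol in the platform annotation were kept, 30604 of 72688, giving 30063 genes, each by its probe set with the highest mean. Another 4 probe sets match the rule only with several symbols and were not used. All 105 members matched RefSeq by gene ID. Genes above the array's median on at least 3 arrays were tested, 20102 in all, with limma 3.58.1 (lmFit and eBayes, R 4.3.3), a mean per group over 12 arrays, two-sided, with Benjamini-Hochberg adjustment over all tested genes in each of 5 comparisons. SE comes from limma, SD from a group's arrays. The number of arrays limits precision, and an exact permutation test of 3 against 3 cannot go below p = 0.1. The code was tested on simulated data.

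Members and lists were chosen with earlier results of these data known. Named genes follow this rule: per comparison and subfamily up to 3 called members with the largest increases and 3 with the largest decreases, all members called at 2-fold or more, all called in the interaction, up to 3 genes per pathway list, and fixed genes such as Slc2a1 and Slc3a2. Other genes named were picked once their values were known. Alternatives were other filters, probe set means, scalings, variance models, arrays left out, a fold of at least 2, and the replicate number as a block. Leaving out both DES arrays numbered 3 was added after seeing the data.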

Additional observations from a re-analysis of the deposited data

Results flagged for a closer look

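For 26 carriers the responses to DES differed between aERKO and WT by limma's test of the difference itself, given here as the log2 difference in aERKO minus that in WT. The interaction was negative, with an increase in WT, for Slc5a8 (-1.97), Slc43a3 (-1.58), Slc7a11 (-1.44), Slc16a12 (-1.11), Slc7a2 (-0.79), Slc15a3 (-0.67), Slc16a1 (-0.62), Slc43a2 (-0.60), Slc5a9 (-0.56), Slc15a4 (-0.50), Slc2a3 (-0.49), Slc16a9 (-0.48), Slc6a6 (-0.47) and Slc7a7 (-0.37). It was positive, with a decrease in WT, for Slc16a7 (0.97), Slc7a1 (0.86), Slc7a5 (0.86), Slc7a8 (0.86), Slc6a8 (0.71), Slc7a4 (0.62), Slc2a10 (0.44), Slc6a20a (0.36), Slc5a1 (0.36), Slc2a8 (0.36), Slc38a7 (0.33) and Slc5a6 (0.26). Of these 26 calls, 11 were lost when some single array was left out, among them those of Slc2a3, Slc6a6, Slc5a6, Slc6a8 and Slc7a5, and 14 held in every alternative setting. Slc5a8, Slc7a11 and Slc16a12 were tested only through the WT_DES arrays, so being high there was a condition of their test.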

How the results depend on the processing

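Leaving out each array in turn gave 34 to 52 called members in WT (13 to 22 higher, 21 to 30 lower), 16 to 33 in the interaction, 48 to 65 between aERKO_DES and WT_DES, and 41 to 52 called genes in the pathway lists. The share of all genes called moved as well. It was 32.2% to 49.0% in WT, 16.9% to 28.4% in the interaction and 37.9% to 54.5% between aERKO_DES and WT_DES. Leaving out an array gave 0 called members in aERKO and between the vehicle groups. Where it left 2 arrays in a group, the fit assumed that group to vary like the others. With the arrays shifted to the same median, 56 members were called in WT (17 higher, 39 lower) and 40 in the interaction. The shares of all genes called were then 52.3% and 31.0%. With the arrays shifted to the hybridization controls, 37 were called in WT (30 higher, 7 lower), 17 in the interaction and 35 between aERKO_DES and WT_DES (8 higher, 27 lower). The shares of all genes called were 43.3%, 14.6% and 31.7%. That shift moves the median of all genes from -0.05 to 0.31, and 4 of the 11 subfamily medians kept their sign. It turned 12 decreases into uncalled positive values: Slc5a6 0.14, Slc2a4 0.13, Slc1a6 0.12, Slc6a9 0.10, Slc3a2 0.0925, Slc1a7 0.0912, Slc6a17 0.0803, Slc6a20b 0.0719, Slc38a5 0.0615, Slc5a2 0.0535, Slc5a5 0.0528 and Slc1a4 0.0049. Another 17 calls, counted over the WT comparison and the interaction together, were lost under it without a change of sign. The stricter filter left 40 calls between aERKO_DES and WT_DES among 53 tested members, since fewer genes were tested, and 53.7% of all genes were called. A fold of at least 2 left 6 calls in WT (4 higher, 2 lower), 4 in the interaction, 6 between aERKO_DES and WT_DES and 9 in the pathway lists. The cause of these changes was not tested. Same-numbered arrays correlated at -0.36 to 0.52 in their deviations from the group means, so the numbers were not taken as pairs. With the replicate block, 55 members were called in WT (20 higher, 35 lower), 35 in the interaction and 65 between aERKO_DES and WT_DES. The block gave calls for 49.7%, 29.8% and 57.0% of all genes in these comparisons. Without both DES arrays numbered 3, a setting chosen after seeing the data, 62 were called in WT and 32 in the interaction. In that setting 53.1% and 26.8% of all genes were called. Signals near the background controls limit Slc5a8, Slc7a11 and Slc16a12 in the groups other than WT_DES.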
